A study of Drosophila melanogaster with 19 samples.

Results

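The regions described here are 379 MSL2 peaks on the X chromosome of wt males of Drosophila melanogaster that had no counterpart in the peak list of M1[wt] males. They were chosen by rule from the chromatin immunoprecipitation sequencing (ChIP-seq) lists. The 200 strongest X peaks of the wt list were set aside, which left 1415 weaker ones, and of these the 379 that shared no base with any M1[wt] peak were kept (26.8%). The wt list held 3799 peaks in all, with 1615 on the X, and the M1[wt] list held 3944, with 1595 on the X. A peak that shares at least 1 base with a peak of the other list is said below to have a counterpart.

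MSL2 is the subunit of the dosage compensation complex that is made in males. The complex assembles on MSL1 and carries the proteins MSL3, MOF and MLE and the noncoding RNAs roX1 and roX2. It binds the single male X at high-affinity sites rich in GA repeats and spreads from them over active genes, where MOF acetylates histone H4 and transcription is raised. Away from the high-affinity sites the complex lies mostly over the bodies of transcribed genes.

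Both groups were whole adult males aged 3 days, of strain Oregon-R by their labels, with MSL2 precipitated by rabbit antibodies and 1 listed sample in each. The genotypes were wt and M1[wt], the latter named in the series beside lines whose MSL1 lacks residues of its N-terminus. The sources used here do not say what M1[wt] flies carry at their own msl-1 gene, or what drives their MSL1. By their names, both lists were called against the male preimmune rabbit control. The other samples of the 19, which include MSL1, MSL3 and preimmune precipitations, were not analysed here.

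Every peak was deposited with 2 replicate calls, each with its own −log10 p. The smaller of these is called the strength here. Strength grows with read depth, which is unknown, so values of the lists are placed side by side below and no change between lines is computed. With 1 sample a group the lines could not be tested against each other. Intervals of shares are exact Clopper-Pearson 95% intervals and those of medians are exact 95% intervals from ranked values, and both treat peaks as independent, which neighbouring peaks are not. A region enters a list by passing in both calls, so a missing counterpart is no measurement of lost binding.

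Most of these peaks were weak. Their median strength was 12.4 (interval 11.9 to 13.3), against 22.9 (22.0 to 24.2) for the 1036 weaker wt X peaks that did have a counterpart and 22.2 for all wt X peaks. The quartiles were 9.99 and 18.2, and 298 of the 379 (78.6%, 74.2 to 82.6%) lay under a strength of 20, where 42.2% of the peaks with a counterpart did. Only 21 (5.54%, 3.46 to 8.35%) reached 50. Strength decided which peaks entered, at the upper end, so these figures describe the choice and carry no test.

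The share of wt X peaks without a counterpart grew down the ranking. It was 9.0% among ranks 1 to 200, which were set aside, and again 9.0% (5.42 to 13.9%) among ranks 201 to 400. It was 10.0% in ranks 401 to 600, 13.5% in ranks 601 to 800 and 19.5% in ranks 801 to 1000. In ranks 1001 to 1200 it was 30.0%, in ranks 1201 to 1400 it was 42.0%, and in the last 215 peaks it was 60.9% (54.1 to 67.5%), where strength ran from 10.8 down to 7.72. Over the whole X list 24.6% of wt peaks and 27.2% of M1[wt] peaks lacked a counterpart. On the autosomes the shares were 26.3% of wt and 33.3% of M1[wt] peaks.

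**Figure D1:**
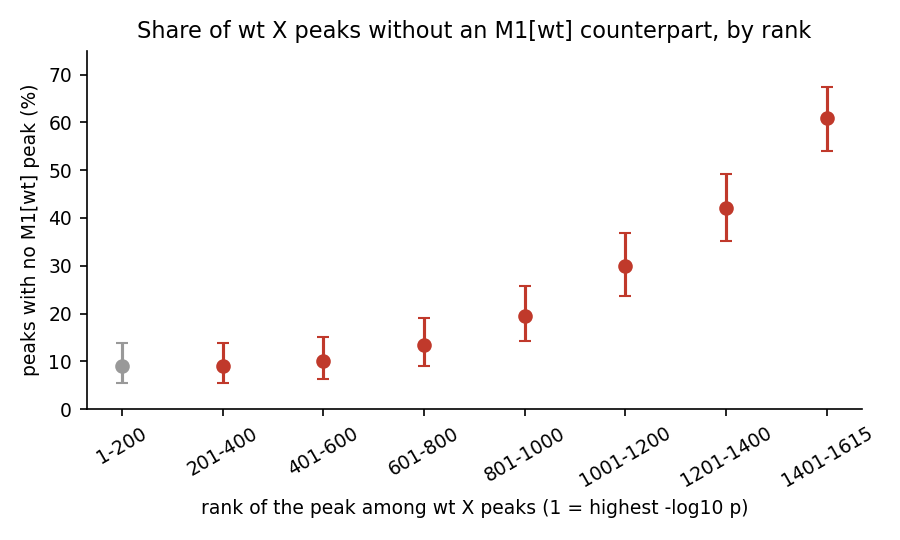
Percentage of wt X peaks that shared no base with an M1[wt] peak, by rank in strength among the 1615 wt X peaks, with exact 95% intervals. The grey point is the 200 strongest, which were set aside, and the red points rise from 9.0% at ranks 201 to 400 to 60.9% at ranks 1401 to 1615.

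The weakest X peak of the M1[wt] list had a strength of 9.81 and the weakest of the wt list 7.72. Of the 379, 85 (22.4%, 18.3 to 27.0%) lay under the lowest M1[wt] value, against 4.05% (2.94 to 5.44%) of the peaks with a counterpart. The authors' global irreproducible discovery rate, a measure of how far the replicate calls agree in rank, was over 0.01 for 157 of the 379 (41.4%, 36.4 to 46.6%) and for 11% of the peaks with a counterpart. The part of list depth in these shares was not tested.

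At the rank that bounded the choice, the last peaks set aside lay at CG8034 (strength 140.9), in NFAT (139.97), a transcription factor gene, and where Lcch3 and Ranbp16 overlap (137.7), and all 3 had a counterpart. The first peaks inside the bound were at lncRNA:CR45541 (131.5, rank 205), in CG1677 (130.0, rank 206) and in xmas (127.8, rank 210). At the other bound, the nearest M1[wt] peak to any of the 379 was 187 bases away. The shortest overlap among the 1036 peaks with a counterpart was 199 bases, and 15 of them were covered by the M1[wt] peak over less than 50% of their width.

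For the chosen peaks the first replicate call was mostly somewhat higher than the second. A peak enters the list only by passing in both calls, so rough agreement between them is part of the choice. The median of the first call was 15.2 (14.3 to 16.5) and of the second 13.3 (12.4 to 14). The first was higher in 271 of 379 peaks (71.5%, 66.7 to 76.0%). That share was 78.5% (75.8 to 80.9%) for weaker peaks with a counterpart, 99.0% for the 200 strongest and 79.4% for all wt X peaks. The median ratio of first to second was 1.13 (1.10 to 1.18), against 1.22 (1.2 to 1.25) for weaker peaks with a counterpart and 1.31 for the 200 strongest. At like rank the medians lay closer. They were 1.29 for the chosen peaks and 1.28 for those with a counterpart in ranks 201 to 600. In ranks 601 to 1000 they were 1.12 and 1.18, and in ranks 1001 to 1615 1.12 and 1.17. A difference of over 2 times was seen in 9 of the 379 (2.37%, 1.09 to 4.46%) and in 4.63% (3.44 to 6.10%) of those with a counterpart. The calls placed their summits a median of 15 bases apart, with 16 for the peaks with a counterpart. Strength is the lower call, so these values are not independent of the choice.

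The peaks on which the calls differed most were named by rule. The peak in CG3815 (X:6294619-6298760) had 89.6 in the first call and 19.3 in the second. At mys, the gene of a beta integrin, they were 31.9 and 12.4, and in ATP7, a copper transporter gene, 27.6 and 12.4. The first call was the higher in all 3. In rdgB, which encodes a phosphatidylinositol transfer protein of photoreceptors, the values were 46.2 and 20.7, and in Usp7, a ubiquitin protease gene, 29.2 and 14.1. Polr2A, the gene of the largest subunit of RNA polymerase II, was the exception among the 6, with 27.3 in the first call and 56.5 in the second.

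**Figure D2:**
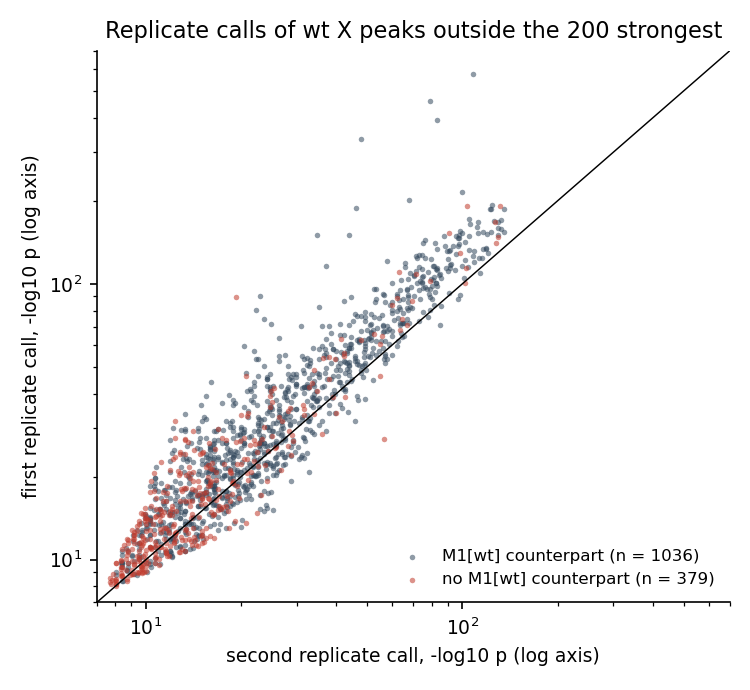
Values of both replicate calls (−log10 p, log axes) for the 1415 wt X peaks outside the 200 strongest, with the line of equal values. The 379 peaks without an M1[wt] counterpart (red) gather at the low end, and CG3815 is the red point farthest above the line. Their median ratio of first to second call was 1.13, against 1.22 for the 1036 with one (dark blue). In ranks 201 to 600 these medians were 1.29 and 1.28.

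The chosen peaks had a median width of 653 bases (602 to 726), against 772.5 (714 to 803) for weaker peaks with a counterpart and 1503 for the 200 strongest. A wide peak meets another list more readily, so width is tied to the choice. At like rank the difference in median width was not seen. In ranks 201 to 600 the median was 1079 bases (844 to 1284) for the 38 chosen peaks and 908 (823 to 979) for the 362 with a counterpart. In ranks 601 to 1000 it was 905 (646 to 1247) and 803.5 (711 to 859), and in ranks 1001 to 1615 it was 583 (497 to 639) and 581.5 (544 to 658). All 3 pairs of intervals overlapped.

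**Figure D3:**
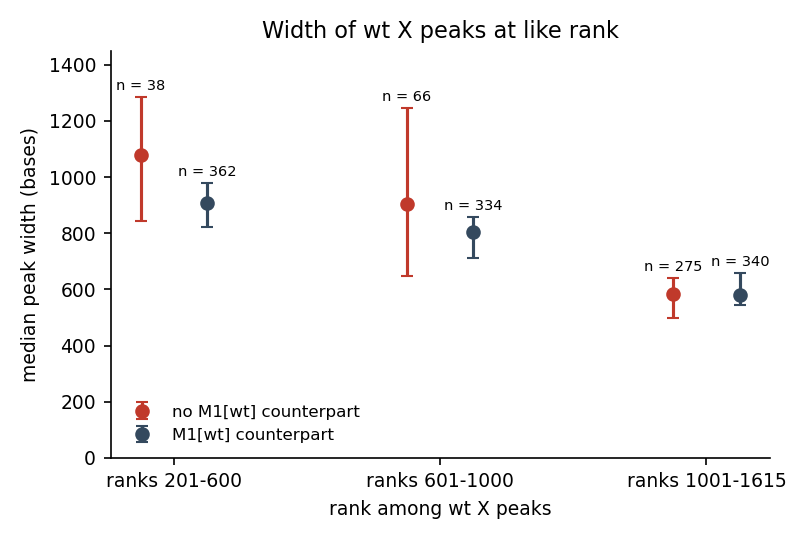
Median width in bases, with exact 95% intervals, of wt X peaks with and without an M1[wt] counterpart in 3 ranges of rank. Within each range the intervals of both kinds of peak overlap, and both medians are lowest, at 583 and 581.5 bases, in ranks 1001 to 1615.

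A few intervals were far wider. The widest, X:1882071-1890297, covered most of trr, the gene of the histone H3 lysine 4 methyltransferase Trithorax-related, over 8227 bases, with 36.4 and 31.4 in the replicate calls and an M1[wt] peak 247 bases away. In Rbcn-3A, whose product regulates the vacuolar proton pump, X:6244969-6251946 spanned 6978 bases (22.1 and 23.8). The interval in Naa15-16, a subunit gene of an N-terminal acetyltransferase, spanned 6796 bases at a strength of only 8.96. Those in Gapvd1 and CG3815 spanned 5079 and 4142 bases. The interval in ssx, a relative of the sex determination gene Sxl, spanned 3848 bases at a strength of 66.9, and no M1[wt] summit lay in ssx or within 1000 bases of it. Strength among these 6 ran from 8.96 to 66.9.

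Many of the peaks lay beside an M1[wt] peak. The gap from end to end had a median of 1352 bases (1074 to 1638), its quartiles were 512 and 3681, and it was at most 1000 bases for 163 of 379 (43.0%, 38.0 to 48.2%) and at most 5000 for 307 (81.0%, 76.7 to 84.8%). It was over 10000 bases for 41 peaks (10.8%, 7.88 to 14.4%). X peaks lay close together in general. Another wt peak lay within 1000 bases for 51.7% of the 379 and for 57.2% of all wt X peaks. For the 434 M1[wt] X peaks without a wt counterpart, the median gap to the nearest wt peak was 1694 bases (1400 to 2045). Closeness to a peak of the other list is thus not particular to the 379. For the 163 peaks with a gap of at most 1000 bases, the M1[wt] peak next door overlapped another wt peak in 128 cases (78.5%, 71.4 to 84.6%). In the remaining 35 (21.5%, 15.4 to 28.6%) it overlapped no wt peak, beside 27.2% of all M1[wt] X peaks. The nearest M1[wt] peak was among that list's 200 strongest X peaks for 57 of the 379 (15.0%, 11.6 to 19%), and those 200 are 12.5% of the M1[wt] X peaks.

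**Figure D4:**
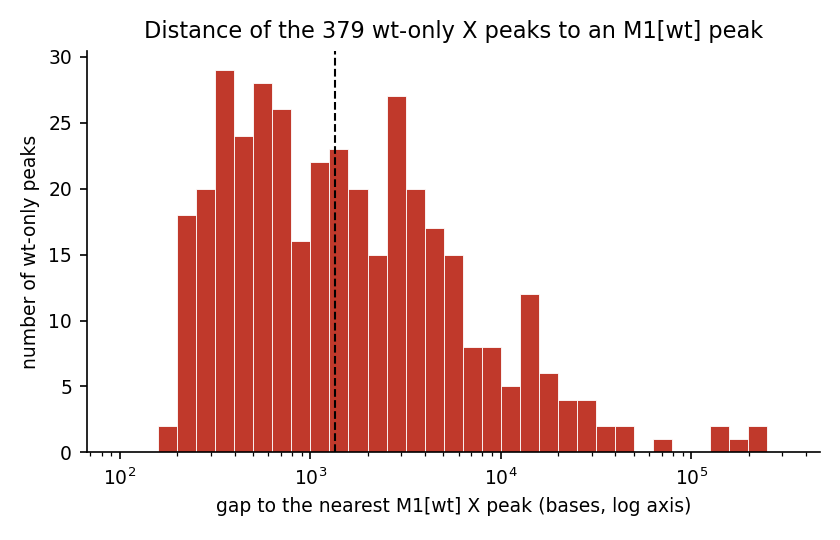
Number of wt X peaks without a counterpart by their gap in bases (log axis) to the nearest M1[wt] X peak. The dashed line marks the median of 1352 bases, and no gap is under 187 bases. The bars at the far right, from 130740 bases on, are the 5 peaks beyond the last protein-coding or lncRNA gene.

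The smallest gaps, by rule, were in Ddx56, a DEAD-box helicase gene (187 bases), in Seipin, a lipid droplet protein gene (198), in fs(1)Ya, a nuclear envelope protein gene of the early embryo (200), in Tak1, a kinase gene of immune and JNK signalling (205), in iav, a hearing channel gene (206), and in CG3032 (208). The Tak1 peak, X:20522998-20523382, had a strength of 11.8 and was 385 bases wide. The M1[wt] peak beside it, X:20521566-20522793, was the 70th of the M1[wt] X peaks, with a strength of 1117. The Ddx56 peak had a strength of 21.2 and its M1[wt] neighbour 13.7. At Seipin, fs(1)Ya, iav and CG3032 the M1[wt] neighbours had strengths of 22.6, 72.8, 34.2 and 27.1. Of these nearest pairs only the one at Tak1 had a neighbour among the 200 strongest M1[wt] X peaks.

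Peaks beside and away from M1[wt] peaks were of like strength. The median was 12.8 (11.95 to 13.7) for the 163 with a gap of at most 1000 bases and 12.2 (11.4 to 13.3) for the other 216. Median widths were 715 (646 to 808) and 598.5 bases (497 to 681), with overlapping intervals. The share within 5000 bases of one of the 200 strongest wt summits was 34.4% (27.1 to 42.2%) for those beside and 13.0% (8.79 to 18.2%) for the others. For all 379 that share was 22.2% (18.1 to 26.7%), beside 22.5% (20.0 to 25.2%) of the weaker peaks with a counterpart, and these intervals overlap. Only 9.0% of the 200 strongest lacked a counterpart, so a peak near one of them tends to lie near an M1[wt] peak. The contrast between peaks beside and away from M1[wt] peaks thus follows in part from how they were split.

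The largest gaps were at the centromere-side end of the X. The last protein-coding or lncRNA gene ends at X:23108331, and genes of other kinds were not used here. Beyond it the wt list held 6 peaks, of which 5 had no counterpart. They lay between X:23347990-23348269 (strength 39.6) and X:23438585-23438805 (11.3), with 25.7, 16.6 and 15.7 in between, were 221 to 420 bases wide, and lay 130740 to 221335 bases from the only M1[wt] peak there, X:23216984-23217250. That M1[wt] peak had a wt counterpart. The sixth largest gap, 71279 bases, was at X:22373219-22373516 (strength 19.8), whose summit was 70780 bases from the nearest gene start or end.

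Among peaks with a gene, the farthest lay in CG43737 (gap of 41040 bases, strength 11.5), in CG32700 (40041 bases, 8.05) and in dnc, the cAMP phosphodiesterase gene studied in learning (32663 bases, 9.19). The others of the 6 lay in SmydA-4 (29981 bases, 8.85), at l(1)G0020 (29683 bases, 62.9) and at Axs, a gene of meiotic chromosome segregation (28123 bases, 34.1). The l(1)G0020 peak, X:8719990-8721016, had 110.7 and 62.9 in the replicate calls. The Axs peak, X:16683184-16684092, had 48.9 and 34.1. These last overlapped their genes with summits 93 and 88 bases outside and were far stronger than the median, while the other 4 had summits inside genes and were under it.

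Along the X the chosen peaks made up a like part of the weaker wt peaks throughout. With the gene-bearing span cut into 5 equal stretches, they were 26.8%, 26.4%, 26.5%, 25.9% and 27.5% of the weaker wt peaks in each, from the telomere inwards. Their density was 14.3, 19.9, 18.4, 16.4 and 11.9 per Mb.

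Most of the peaks lay inside genes, as other X peaks did. The summit was inside a protein-coding or lncRNA gene for 339 of 379 (89.4%, 85.9 to 92.4%), against 88.4% (86.3 to 90.3%) of weaker peaks with a counterpart and 90% (85.0 to 93.8%) of the 200 strongest. Genes of these kinds cover 75.5% of the bases between the first and the last of them on the X. Lying 500 bases or less from a gene boundary (start or end) were 134 summits (35.4%, 30.5 to 40.4%), against 37.6% (34.7 to 40.7%) and 37.0% (30.3 to 44.1%), where 15.7% of bases lie. Inside a gene and farther than that from any start or end were 235 (62.0%, 56.9 to 66.9%). The intervals of all 3 kinds of peak overlapped in each class. Start and end, and exons and introns, were not told apart, since strand and exon positions were not used here.

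**Figure D5:**
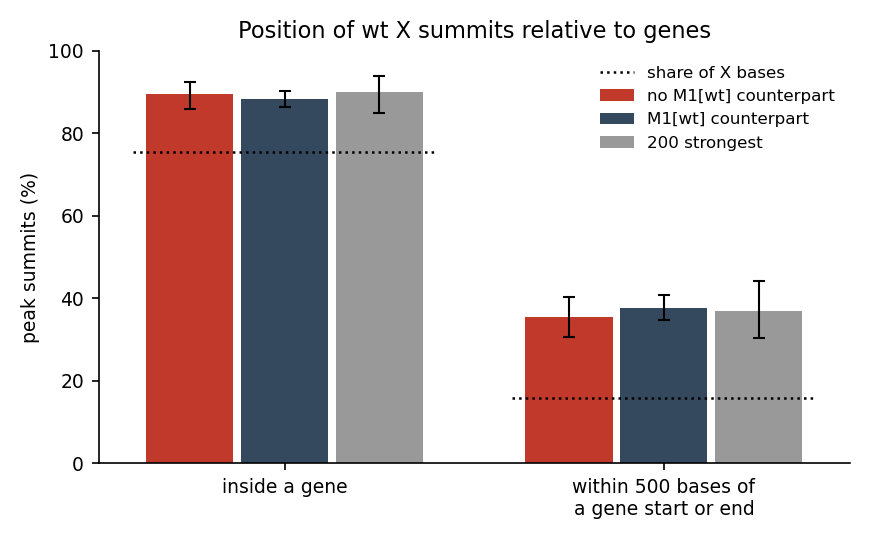
Percentage of wt X summits inside a gene and at most 500 bases from a gene boundary (start or end), with exact 95% intervals, for the 379 peaks without an M1[wt] counterpart, the 1036 weaker peaks with one and the 200 strongest. Dotted lines give the share of X bases in each class (75.5% and 15.7%), and the 3 bars of a class have overlapping intervals.

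Position also varied with rank. In ranks 201 to 600, 76.3% of the 38 chosen summits (59.8 to 88.6%) were inside a gene and 47.4% (31.0 to 64.2%) near a gene start or end. In ranks 1001 to 1615 the shares were 92.4% (88.6 to 95.2%) and 30.5% (25.2 to 36.4%). Peaks with a counterpart had 84.8% and 48.1% in the upper range and 92.1% and 29.7% in the lower. In ranks 601 to 1000 the chosen peaks had 84.8% inside and 48.5% (36 to 61.1%) near a boundary, and those with a counterpart 88.6% and 34.4% (29.3 to 39.8%). The 200 strongest, with 90% inside and 37.0% near a boundary, did not continue an order with rank.

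The 12 strongest peaks, by rule, were led by X:9584230-9586667, with 192.1 and 131.5 in the replicate calls. It was 2438 bases wide, its summit lay 186 bases from the noncoding gene lncRNA:CR45541, and an M1[wt] peak of strength 22.2 came nearest, at 3305 bases. In CG1677 and the overlapping lncRNA:CR44357, X:7306530-7308044 had 148.1 and 130.0, with 5150 bases to the nearest M1[wt] peak. In xmas, an mRNA export gene, X:17154410-17155922 had 140.2 and 127.8, and an M1[wt] peak with a strength of 43.7 lay 313 bases away in the same gene.

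In U2af50, the gene of the large subunit of a splicing factor, X:16356534-16357469 had 167.3 and 126.5 in the replicate calls, with the nearest M1[wt] peak (62.4) 1434 bases away. U2af50 held a second peak of this kind, with a strength of 33.7, and no wt peak with a counterpart. In CG4199, X:2070375-2071182 had 192.1 and 103.6, with an M1[wt] peak 241 bases away. In Prosalpha4, the gene of an alpha subunit of the proteasome core, X:16276209-16277316 had 100.8 and 102.0, with an M1[wt] peak (31.7) 890 bases away. These values were far above the median of 12.4.

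CG32767 (102.7), CG14777 (98.4) and CG1824 (90.8) followed. In spoon, which encodes an anchor for protein kinase A, X:5417862-5418305 was 444 bases wide with 102.7 and 79.3 in the calls, and lay 601 bases from an M1[wt] peak of strength 477. At Set2, the gene of the histone H3 lysine 36 methyltransferase whose mark MSL3 recognises, X:13418956-13421400 (108.3 and 71.4) overlapped the gene with its summit 210 bases outside, with an M1[wt] peak (18.7) 390 bases away. The last of the 12 lay in Dora (69.6). For 10 of the 12 the nearest M1[wt] peak had a strength of at most 62.4 in its own list. At CG1677 and at spoon it was 94.9 and 477. The bound of 62.4 is the highest of the 10 values, taken after they were seen. The M1[wt] peak that gave it, near U2af50, ranked 568 of 1595 on the X, so most M1[wt] X peaks were weaker still.

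By the gene, the peaks fell to 330 of 2438 X-linked protein-coding and lncRNA genes (13.5%). Of these 275 held 1 such peak, 45 held 2, 7 held 3 and 3 held 4. Their median length was 4928 bases, beside 4783 for genes with a weaker peak that had a counterpart and 2312 for all X-linked genes. Of the 330 genes, 217 (65.8%, 60.4 to 70.9%) had an M1[wt] summit elsewhere in the gene or within 1000 bases of it, and 113 (34.2%, 29.1 to 39.6%) had none. The like share over all X-linked genes is not given here, so neither share by the gene can be read as high or low. Counted by the peak, 68.9% of the 379 (63.9 to 73.5%) had a gene with an M1[wt] summit at or within 1000 bases of it, against 97.9% (96.8 to 98.7%) of weaker peaks with a counterpart and 91.0% of all wt X peaks. The absence of an overlapping M1[wt] peak, by which the 379 were chosen, bears on this share.

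The genes without any M1[wt] summit were led by lncRNA:CR45541, ssx and l(1)G0020, given above. After them came Larp7, a gene of a La-related RNA-binding protein (strength 60.0), p24-1 (42.4), the Hedgehog pathway kinase gene fu (36.4), Torsin (34.7), Axs (34.1), Lamtor5, a subunit gene of the Ragulator complex (32.9), and RpS15Aa, a ribosomal protein gene (31.6). Of these 10, only ssx also had one of the 200 strongest wt peaks, and none held a weaker wt peak with a counterpart. Having no M1[wt] summit means none in the gene or within 1000 bases of it. An M1[wt] peak can still lie close, as at RpS15Aa, where one with a strength of 13.9 lay 696 bases from the wt peak.

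Among the genes with most of these peaks were, by rule, lncRNA:CR44357 and CG1677, rictor and Rbcn-3A. The first pair overlap, so that the same 4 peaks were counted for both. CG1677 is 124709 bases long and lncRNA:CR44357 is 239347, and brk, a repressor gene of Dpp signalling, and the autophagy gene Atg5 lie inside them. CG1677 also held 8 weaker peaks with a counterpart and 1 of the 200 strongest. In rictor, a subunit gene of the kinase complex TORC2, 4 peaks had strengths of 14.7, 14.7, 14.3 and 16.0 along a gene of 9130 bases, and 1 wt peak with a counterpart lay there as well. In Rbcn-3A 3 peaks had 12.1, 22.1 and 12.8. Peaks of 1 gene are neighbours and not separate evidence.

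X-linked members of gene lists were looked up, and their counts are set beside the 13.5% of all X-linked genes. Among X-linked protein-coding genes alone the share was 14.7%. All but the lncRNA list are short, and nothing is called particular to any of them. The intervals are no test of a list, since the lists were chosen with earlier results of these data known. Genes with these peaks were also longer than X-linked genes in general (medians 4928 and 2312 bases), so 13.5% is no matched reference. None of lncRNA:roX1, lncRNA:roX2 and mof had a peak of this kind (0 of 3, interval 0 to 70.8%), and all 3 had other wt peaks, 2 of them with an M1[wt] summit. Of 14 genes of chromatin proteins 6 had one (42.9%, 17.7 to 71.1%). Besides Set2 (71.4) and trr (31.4) they were e(y)3, a subunit gene of a Brahma remodelling complex (16.6), Taf9, shared by TFIID and SAGA (15.7), and the Polycomb genes ph-p (12.3) and ph-d (9.15). The last pair are near-identical tandem copies, so reads could be placed at either and their values are uncertain.

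Of the signalling lists, 2 of 7 Notch pathway genes had such a peak (28.6%, 3.67 to 71.0%), namely pcx (24.8) and sno (8.78), which encode proteins that act in Notch signalling. Of 8 Wingless genes 2 did (25.0%, 3.19 to 65.1%), the casein kinase gene CkIalpha (13.3, with 27.1 in the first call) and the receptor gene fz3 (11.6). Of 8 genes of Ras and JNK signalling 2 did (25.0%), Tak1 (11.8) and the phosphatase gene csw (11.1). Of 10 neuronal ion channel genes 2 did (20.0%, 2.52 to 55.6%), the potassium channel gene eag (10.7) and Hk, a potassium channel beta subunit (10.6). Apart from pcx and CkIalpha these strengths lay under the median of all 379.

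Of 14 cytosolic ribosomal protein genes 2 had a peak of this kind (14.3%, 1.78 to 42.8%), RpS15Aa (31.6) and RpL17 (10.3), in both cases overlapping the gene with the summit outside it. Of 14 Rab GTPase genes 1 had one, Rab35 (11.5), where an M1[wt] peak with a strength of 3280 lay 347 bases away. Of 8 eye colour genes 1 had one, VhaAC39-1 (8.04), the proton pump subunit gene known from the chocolate mutation. None of 11 genes of mitochondrial ribosomal proteins did (0 to 28.5%). Of 240 lncRNA genes 6 did (2.50%, 0.923 to 5.36%), led by lncRNA:CR45541 and lncRNA:CR44357. Other wt X peaks fell to 23 of the 240, and the like share over all X-linked genes is not given here.

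Further genes are named after their values were seen, because they are widely studied. Sxl, the switch gene of sex determination, had 2 such peaks. One was 258 bases wide with its summit 111 bases from the gene (31.9 and 27.0 in the replicate calls), 645 bases from an M1[wt] peak, and the other lay inside the gene (12.4 and 10.6), 12797 bases from one. The clock gene per held a peak 3408 bases wide with 23.2 and 12.2 in the calls, and an M1[wt] peak with a strength of 83.2 lay 637 bases away. Polr2A and Spt6, a transcription elongation factor gene, each held 2 (27.3 and 9.02 in Polr2A, 28.4 and 9.66 in Spt6), and no wt peak with a counterpart fell to either. HERC2, a ubiquitin ligase gene, held 3 (63.5, 10.3 and 10.0), at 17064, 12208 and 10732 bases from the nearest M1[wt] peak.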

How the data were processed

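The deposited peak lists have 20 columns without a header, a layout used for output of the irreproducible discovery rate (IDR) method on 2 replicate calls. Tools in the submitters' processing notes are MACS2, Bowtie2, cutadapt, deepTools and Picard, and the builds there are dm3 and dm6, without roles. The sources used here give neither the caller's settings nor what the replicate calls are. The −log10 p the authors deposited for a peak equals the smaller replicate call throughout (3799 wt and 3944 M1[wt] rows). Other deposited columns hold the −log10 IDR and a score scaled from it, and the smallest global −log10 IDR, 1.30 in both lists, is that of an IDR of 0.05. The score was not used. Coordinates are 1-based. They are taken as dm6 (Release 6), since the strongest wt X peak, X:3860712-3862761, lies at lncRNA:roX1 of the RefSeq Release 6 gene table. Rows on unplaced sequences (11 wt, 9 M1[wt]) were left out.

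Peaks were ranked by strength, then start. A peak was assigned to every protein-coding or lncRNA gene around its summit. Where there was none, the closest gene boundary up to 1000 bases away decided. Named genes are those at the 12 strongest peaks, the 6 widest, farthest (also the 6 farthest with a gene, added after seeing the data), nearest and most unequal between replicate calls, the 5 genes with most peaks (1 of which is not reported here), up to 4 per gene list and the 3 on each side of the rank bound. Other names are marked as chosen later, and so are the genes without M1[wt] summits and the chromatin genes beyond 4. The peaks and gene lists were chosen with earlier results of these data known. No p-value was computed. The planned search for GA-rich words needs sequence, which was not used here. Overlap and gaps were checked on simulated lists made from the wt X peaks. Assignment was checked at the midpoints of sampled X-linked genes, and assignment by the closest gene boundary was not checked. Python 3.11.15, pandas 2.3.3 and SciPy 1.17.1 were used.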

Additional observations from a re-analysis of the deposited data

How the results depend on the processing

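Read depth is unknown and each group is 1 sample, so no sample could be left out. No paired analysis was possible because each group holds 1 sample and the results come from no test. Of 101 recomputed values, 80 stayed within 1.5 times (counts) or inside the interval of the reported value, and 21 moved. All 16 values with the 200 strongest ranked by either replicate call alone and the 16 with 100 or 400 strongest set aside were among the 80. So were the 8 without peaks over 5000 bases wide and the 8 requiring overlap of 50% of the wt peak. The 8 without the peaks beyond the last protein-coding or lncRNA gene (a setting chosen after seeing the data) were among the 80 too. A stricter wt list changed most. At a global IDR of 0.01 or less there were 222 peaks, with a median strength of 16.1, width of 767 bases and replicate-call ratio of 1.19. At 0.001 or less there were 66, with 34.4, 1079 bases and 1.25, and 75.8% lay inside a gene and 47.0% lay at most 500 bases from a gene boundary. Counting an M1[wt] peak within 500 bases as a counterpart left 286 peaks, with a median gap of 2339 bases and 24.5% within 1000 bases. Requiring summits within 250 bases gave 558 peaks. Their median strength was 14.3, width 831 and gap 536 bases, with 61.3% within 1000 bases. Both counts are among the 80 only because the limit for counts is 1.5 times, so the number of peaks depends on how a counterpart is defined. With a window of 200 bases, 14.2% lay near a gene boundary, and with 500 bases as the distance that counts as beside, 24.5% lay within 500 bases of an M1[wt] peak. With summits inside the gene alone, the count was 1 for Wingless, 1 for ion channel and 0 for cytosolic ribosomal protein genes. Some of these changes follow by construction. Stricter thresholds keep fewer and stronger peaks, the counterpart distance of 500 bases removes the smallest gaps, and narrower windows hold fewer peaks. The cause of the other changes was not tested.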
